A study of Mus musculus with 38 samples.

Results

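Dormant cells of the mouse CD8 T cell clone 8uvmo-2 were compared with dormant cells of the clone 8uvmo-3. The comparison took the 4 arrays titled as dormant 8uvmo-2 and the 4 titled as dormant 8uvmo-3, which are 8 of the 38 arrays of the series. Both clones carry the phenotype label CD8IL13-, read here as CD8 T cells without interleukin 13, and each is a single clone. The series set CD8 clones of a type called CD8γ13 against Tc1 clones and 1 alloreactive CD8 clone, at rest and after 14 h on plates coated with an antibody to CD3 at 0.5 ug/ml. Dormant cells are described as in the resting state, in RPMI medium with serum. Whether they had stopped dividing was not tested. Used beside them here were the 4 activated 8uvmo-2 and 4 activated 8uvmo-3 arrays, and the 10 dormant arrays of the other 3 clones (sAg1 and sAg3, labelled CD8IL13+, and CD8bm1, labelled allo CD8). The labels used here give no mouse strain, age or antigen for a clone, and nothing in them shows that the replicates are separate cultures. The spread behind the p-values is thus that of these arrays alone, possibly a technical one, and it concerns 2 clones and not a phenotype.

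A T cell clone descends from 1 cell and keeps 1 T cell receptor, so clones of the same class can differ in stable features such as receptor chains, adhesion molecules and killer receptors. CD8 T cells kill with perforin and granzymes, serine proteases stored in granules, and signal with cytokines such as interferon gamma and with chemokines such as CCL3, CCL4 and CCL5. Killer lectin-like receptors (Klr and Klra genes, first known from natural killer cells), PD-1 and integrins set when such a cell responds and where it resides. Between stimulations a cultured clone can return to rest, and the genes of DNA replication and mitosis then fall silent together.

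Array values are log2 intensities, so a difference of 1 is a 2-fold change. No background was measured, and values below 7, a little above the median of 6.67, are treated as near background. Where the lower clone lay below 7, a fold is given as "at least". Both groups carried the messenger RNAs of CD8 T cells. Cd8a read 11.88, 11.77, 11.89 and 11.76 in dormant 8uvmo-2 and 12.06, 12.09, 12.14 and 12.1 in dormant 8uvmo-3, and the T cell receptor chain Cd3e averaged 13.44 in dormant 8uvmo-2, against 12.9 in dormant 8uvmo-3. Il13 stayed below 7 on all 8 arrays, at 6.09, 6.16, 6.26 and 6.35 in dormant 8uvmo-2 and 6.05, 5.88, 6.06 and 6.19 in dormant 8uvmo-3, in cells labelled CD8IL13-. Dormant sAg1, labelled CD8IL13+, was as low at 6.24, and dormant CD8bm1 averaged 6.19, while dormant sAg3, also labelled CD8IL13+, averaged 10.29. A low Il13 level at rest thus did not separate the labels. Markers of other cells were near background: 22 of 25 macrophage and dendritic cell genes, 13 of 13 B cell genes, 11 of 11 erythroid and granulocyte genes and 13 of 17 stromal and epithelial genes averaged below 7 in both clones. The median of the macrophage and dendritic list ran from 5.45 to 5.69 over the dormant 8uvmo-2 arrays, against 5.38 to 5.51 over the dormant 8uvmo-3 arrays. The corresponding ranges were 5.05 to 5.14 against 5.26 to 5.37 for B cell genes, 5.32 to 5.57 against 5.25 to 5.55 for erythroid and granulocyte genes, and 5.72 to 6.22 against 6.19 to 6.36 for stromal and epithelial genes.

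The 4 dormant 8uvmo-2 arrays formed 2 sets. Replicates 1 and 3 correlated at 0.9974 and replicates 2 and 4 at 0.9973, while the correlation across the sets was 0.9858 to 0.9894. The 4 dormant 8uvmo-3 arrays formed 1 tight group at 0.9966 to 0.9979, and the correlation between the clones was 0.9711 to 0.976. The sets were therefore further apart than the 8uvmo-3 arrays among themselves, but nearer to each other than either was to 8uvmo-3. Nothing in the labels names the sets. For this reason a difference between the clones was read only where the mean of each set lay at least 1 log2 unit from the 8uvmo-3 mean in the same direction.

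Between the dormant clones, 1033 of 23410 gene-named probe sets passed the test (4.41%; limma, Benjamini-Hochberg adjusted p under 0.05 and a difference of at least 1), 552 higher and 481 lower in 8uvmo-2. Both sets held 792 of the 1033 (76.7%), which is 3.38% of all probe sets, the share beside which each count of list members below stands. Of these, 397 were higher in 8uvmo-2 (1.7% of the probe sets tested) and 395 were lower (1.69%), and they name 706 distinct genes. On 791 of the 792 the 4 arrays of the clones did not overlap, the exception being Slc16a3. The rule that chose the 792 favours arrays that do not overlap, so this is no independent evidence. The share over all probe sets was not counted. The median size of a held difference was 1.69, and 38 reached 16-fold, 9 higher and 29 lower in 8uvmo-2. The lower clone averaged below 7 on 473 of the 792, and both clones did on 115. The other 241 calls came from differences of at least 1 on average of which 1 set fell short. In bulk RNA, fewer cells with a transcript and less transcript per cell cannot be told apart.

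**Figure D1:**
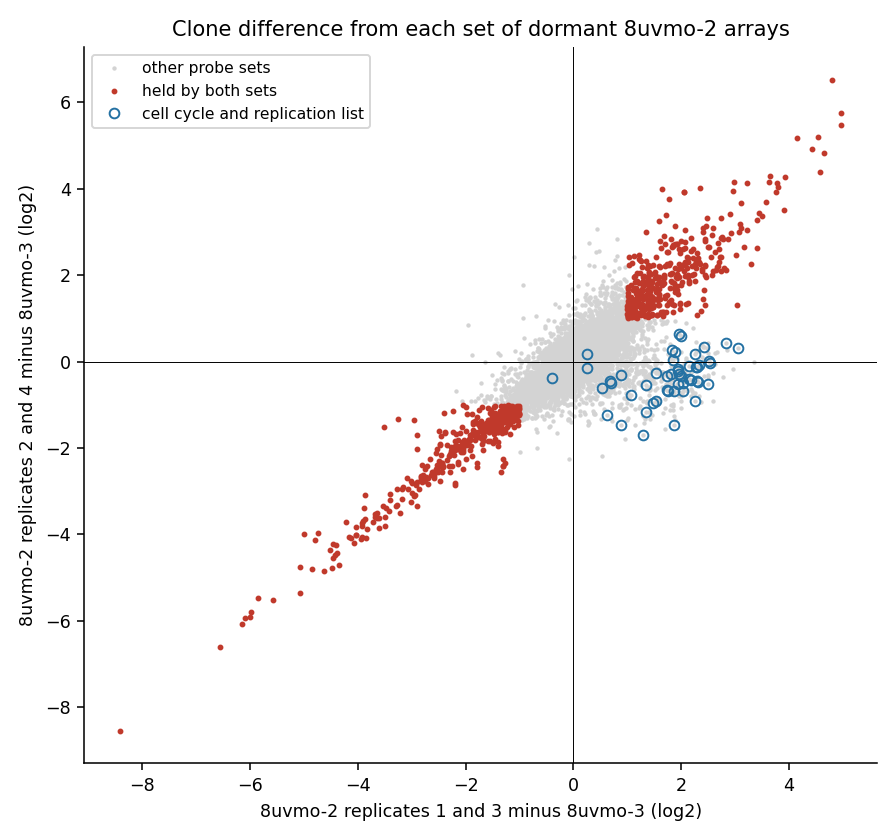
Each point is a probe set, placed by the difference of dormant 8uvmo-2 replicates 1 and 3 (horizontal axis, log2) and of replicates 2 and 4 (vertical axis, log2) from the mean of the 4 dormant 8uvmo-3 arrays. The 792 probe sets held by both sets (red) lie along the diagonal, while most of the 50 cell cycle and replication genes (blue rings) lie near 2 on the horizontal axis and near 0 or below on the vertical axis.

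The 12 largest falls were in genes that averaged below 7 in 8uvmo-2 and above 8 in 8uvmo-3. Klra5, a killer lectin-like receptor of the Ly49 family, read 3.62, 3.7, 3.68 and 3.32 in dormant 8uvmo-2, against 11.94, 12.09, 12.16 and 12.05 in dormant 8uvmo-3. It fell by 8.48 in 8uvmo-2 (SE 0.097, adjusted p = 1.79e-11), a level at least 357-fold lower, and no array of 1 clone came within 8 log2 units of the other. Pdcd1, which encodes the inhibitory receptor PD-1, read 5.75, 6.25, 6.13 and 5.8 in dormant 8uvmo-2, against 11.89, 12, 11.97 and 11.9 in dormant 8uvmo-3, a drop of 5.96 (SE 0.11, adjusted p = 7.54e-10). Klrg1, an inhibitory receptor of antigen-experienced T cells, read 5.76, 6.27, 5.84 and 6.12 in dormant 8uvmo-2, against 11.62, 11.65, 11.6 and 11.78 in dormant 8uvmo-3 and fell by 5.67 (SE 0.11, adjusted p = 8.44e-10). For all 3 receptors the 4 dormant 8uvmo-2 arrays lay below 7 and the 4 dormant 8uvmo-3 arrays above 11. The other dormant clones did not follow 1 pattern. Klra5 averaged 3.27 in sAg1, 3.51 in sAg3 and 10.93 in CD8bm1. Pdcd1 averaged 10.88 in sAg1, 6.29 in sAg3 and 7.33 in CD8bm1. Klrg1 averaged 5.82 in sAg1, 10.14 in sAg3 and 12.14 in CD8bm1. Each receptor was thus at a high level in 1 or 2 of the 3 other clones.

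Adhesion and secreted proteins followed. Adgre5 encodes CD97, an adhesion G protein-coupled receptor that binds CD55, and it read 5.71, 5.74, 5.65 and 5.76 in dormant 8uvmo-2, against 11.83, 11.9, 11.82 and 11.78 in dormant 8uvmo-3. It fell by 6.12 (SE 0.063, adjusted p = 1.79e-11) and was high in dormant 8uvmo-3 alone, with 7.09 in sAg1, 5.82 in sAg3 and 5.56 in CD8bm1. C1ql3, a secreted C1q-like protein known from synapses, averaged 4.9 in dormant 8uvmo-2, against 10.92 in dormant 8uvmo-3, and Krt20, a keratin of gut epithelium, averaged 4.99 in dormant 8uvmo-2, against 10.53 in dormant 8uvmo-3. They fell by 6.02 (adjusted p = 5.4e-11) and 5.54 (adjusted p = 1.79e-11) and stood below 6 in all 3 other dormant clones. Clgn, a chaperone of the endoplasmic reticulum first known from testis, fell by 6.59 (SE 0.085, adjusted p = 4.53e-11), but it was also high in 2 other clones, with 10.66 in sAg1, 12.08 in sAg3 and 5.3 in CD8bm1. B3gnt5, a glycosyltransferase of lacto-series glycolipids, fell by 5.22 (adjusted p = 9.61e-09). Frzb, a secreted Wnt antagonist, fell by 4.92 (adjusted p = 1.6e-08), Sema3d, a secreted guidance protein, by 4.82 (adjusted p = 7.58e-11), and Bex3 by 4.63 (adjusted p = 8.61e-09). Stox2 fell by 4.75 (adjusted p = 1.24e-09), and a second probe set of the gene was also lower by both sets, at -2.44. Among these 12 genes the distance between the 2 sets of 8uvmo-2 was largest for Klrg1, at -0.4.

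The 12 largest rises in 8uvmo-2 included a granule protease, an integrin and enzymes of lipid metabolism. Cpa3, a carboxypeptidase known from mast cell granules, read 9.89, 11.28, 9.55 and 11.59 in dormant 8uvmo-2, against 4.93, 5.08, 4.87 and 4.78 in dormant 8uvmo-3. It rose by 5.66 (SE 0.4, adjusted p = 4.73e-06), with 4.81 for replicates 1 and 3 and 6.52 for replicates 2 and 4. Values of 5 other genes known from mast cells or basophils, chosen after their values were seen, differed in pattern. Kit averaged 5.46 in dormant 8uvmo-2, against 5.63 in dormant 8uvmo-3, and Fcer1a and Ms4a2, both subunits of the IgE receptor, averaged below 4 in both clones. Hpgds, a prostaglandin D2 synthase, averaged 8.66 in dormant 8uvmo-2, against 5.7 in dormant 8uvmo-3 (adjusted p = 2.28e-06), and the protease gene Mcpt8 on chromosome 14 averaged 10.12 in dormant 8uvmo-2 against 6.93 in dormant 8uvmo-3 (adjusted p = 0.000662). Itgax encodes CD11c, an integrin of dendritic cells that activated CD8 T cells can also carry. It read 10.07, 11.04, 10.57 and 11.19 in dormant 8uvmo-2, against 4.97, 5.38, 5.59 and 5.47 in dormant 8uvmo-3 and rose by 5.37 (SE 0.23, adjusted p = 1.48e-07). Itgax was also high in 2 of the other clones, with 7.5 in sAg1, 11.2 in sAg3 and 10.59 in CD8bm1. Of the dendritic and macrophage genes, Csf1r averaged 5.76 in dormant 8uvmo-2 and 5.71 in dormant 8uvmo-3, and Mpeg1 averaged 4.29 in dormant 8uvmo-2 and 4.32 in dormant 8uvmo-3. The list was not flat throughout. Cd68, Itgax and Apoe were the members at 7 or above in a clone. Of the 25 genes, 2 were called higher in 8uvmo-2 and none lower. At an adjusted p under 0.05 alone (limma), 3 were higher and none lower.

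Scd1, the desaturase that makes monounsaturated fatty acids, read 9.92, 10.46, 9.86 and 10.35 in dormant 8uvmo-2, against 4.62, 4.88, 5.14 and 5.03 in dormant 8uvmo-3, a rise of 5.23 (SE 0.16, adjusted p = 1.13e-08). It was below 6 in all 3 other dormant clones. Asb2, a subunit of a ubiquitin ligase, averaged 11.51 in dormant 8uvmo-2, against 6.65 in dormant 8uvmo-3, and Slc34a2, a sodium phosphate transporter, averaged 9.89 in dormant 8uvmo-2, against 5.22 in dormant 8uvmo-3. Their rises were 4.87 (adjusted p = 2.23e-08) and 4.67 (adjusted p = 4.26e-08), and neither exceeded 7 in another dormant clone. Pnliprp2, a lipase that cytotoxic T cells can express, read 12.89, 12.96, 12.89 and 13.14 in dormant 8uvmo-2, against 8.39, 7.91, 8.42 and 8.2 in dormant 8uvmo-3 and rose by 4.74 (SE 0.11, adjusted p = 2.29e-09); of the other clones, sAg1 was as high, at 12.99. Scin, an actin-severing protein, rose by 4.48 (adjusted p = 3.81e-08), and Nmur1, a receptor for neuromedin U, by 4.1 (adjusted p = 1.22e-08). Fcrl1, an Fc receptor-like protein of B cells, rose by 3.96 (adjusted p = 2.8e-08) while the B cell gene Ms4a1 averaged 4.16 in dormant 8uvmo-2 and 4.1 in dormant 8uvmo-3. The interferon-inducible Ifi207 and Ifi208, neighbours in the Ifi200 family on chromosome 1, rose by 3.97 (adjusted p = 3.53e-07) and 3.92 (adjusted p = 2.36e-07). Among the 12 largest rises, the smallest difference from 8uvmo-3 in 1 set alone was 3.65, for Ifi207.

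**Figure D2:**
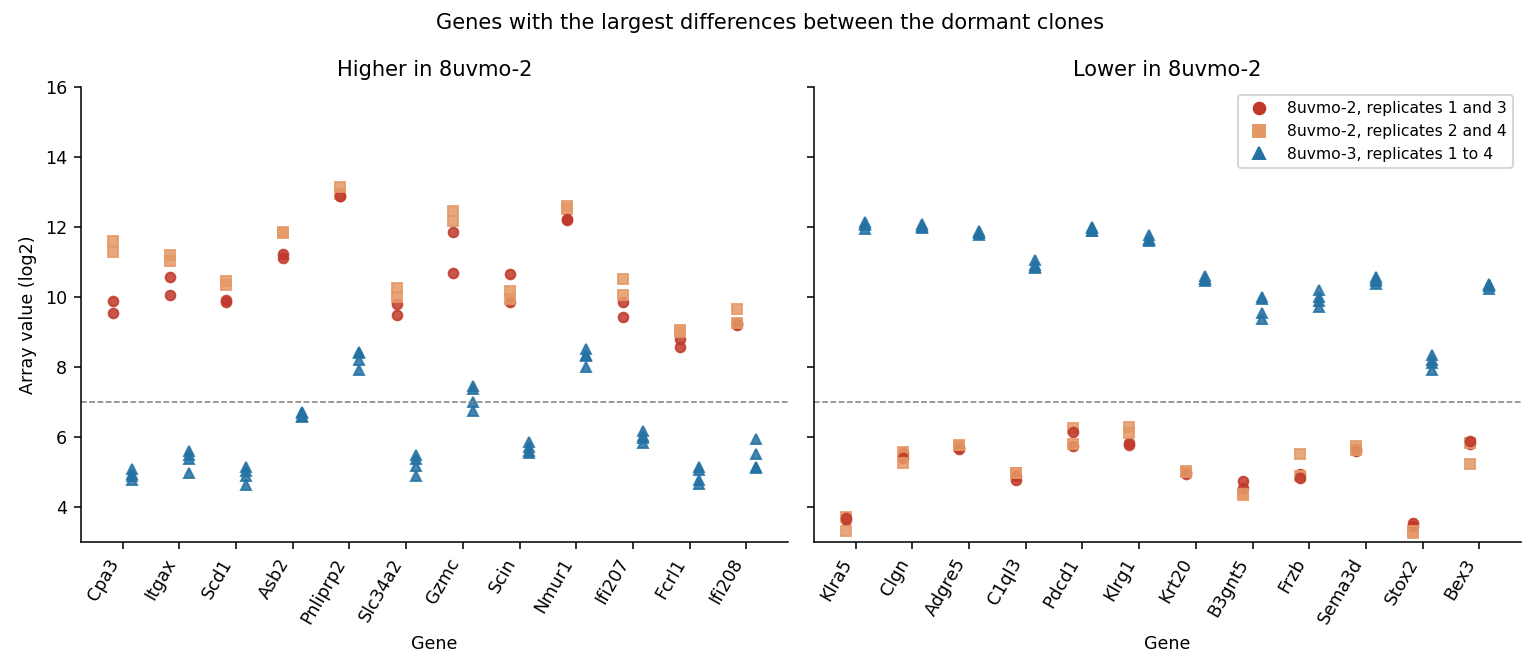
Array values (log2) of the 12 genes with the largest rises (left) and the 12 with the largest falls (right) among those held by both sets. Circles and squares are the 2 sets of dormant 8uvmo-2 arrays, triangles the 4 dormant 8uvmo-3 arrays, and the dashed line marks 7. In each gene all 4 arrays of 1 clone lie apart from all 4 of the other, and Cpa3 shows the widest distance between the sets.

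The granzyme cluster of chromosome 14 was higher in 8uvmo-2 over 5 neighbouring genes. Gzmc read 10.7, 12.18, 11.87 and 12.45 in dormant 8uvmo-2, against 6.74, 7.01, 7.45 and 7.36 in dormant 8uvmo-3, a rise of 4.66 (SE 0.33, adjusted p = 4.86e-06). Gzmg read 13.07, 13.86, 13.55 and 13.94 in dormant 8uvmo-2, against 9.58, 10.15, 11.2 and 11.35 in dormant 8uvmo-3 and rose by 3.04 (SE 0.37, adjusted p = 0.000168), and Gzme read 12.08, 13.23, 12.95 and 13.47 in dormant 8uvmo-2, against 9.2, 10.14, 10.25 and 10.56 in dormant 8uvmo-3 and rose by 2.9 (SE 0.33, adjusted p = 0.000116). Gzmf rose by 1.75 (adjusted p = 1.04e-05) and Gzmd by 1.58 (adjusted p = 0.000677). All 5 were higher in each 8uvmo-2 set, and no array of the clones overlapped for them. Granzymes of this cluster are close paralogs, so probes can pick up more than 1 of them. Gzmb, the granzyme at the edge of the cluster that induces apoptosis, read 13.03, 13.32, 13.3 and 13.57 in dormant 8uvmo-2 and 12.38, 12.51, 12.56 and 12.63 in dormant 8uvmo-3. Its difference was 0.79 (adjusted p = 0.000239), under the minimum of 1. Gzma, on chromosome 13, differed by -0.17 (adjusted p = 0.0719), which missed the test, and perforin (Prf1) by 0.75 (adjusted p = 0.0331), with 0.29 for replicates 1 and 3 and 1.21 for replicates 2 and 4. Of the 21 granule genes measured, 7 were held as higher and none as lower, and the median of the list was 0.11, beside -0.005 over all probe sets. The other 2 were Serpinb6b, a serpin, with a rise of 2.32 (adjusted p = 1.53e-05), and Serpinb9, the serpin that inhibits granzyme B, with a rise of 1.29 (adjusted p = 4.8e-06).

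The start regions of 4 of these genes are shown because the cluster moved together while Gzmb moved less. They run from 250 bases before to 50 bases after the annotated start (RefSeq, build GRCm38.p6), 5′ to 3′. Capitals mark letters that match 2 binding motifs of T cell factors on either strand, ACCACA (Runx) and TGANTCA (AP-1). Gzmb lies at chr14:56262285-56262584 on the minus strand, Gzmc at chr14:56234608-56234907 on the minus strand, Gzmd at chr14:56132544-56132843 on the minus strand and Gzmg at chr14:56159530-56159829 on the minus strand.
Gzmb: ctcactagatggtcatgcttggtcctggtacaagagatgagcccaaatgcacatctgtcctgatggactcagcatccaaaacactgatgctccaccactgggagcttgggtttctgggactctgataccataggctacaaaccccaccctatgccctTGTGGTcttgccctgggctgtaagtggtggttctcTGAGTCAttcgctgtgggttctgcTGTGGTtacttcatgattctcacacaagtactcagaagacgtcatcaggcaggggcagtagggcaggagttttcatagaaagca
Gzmc: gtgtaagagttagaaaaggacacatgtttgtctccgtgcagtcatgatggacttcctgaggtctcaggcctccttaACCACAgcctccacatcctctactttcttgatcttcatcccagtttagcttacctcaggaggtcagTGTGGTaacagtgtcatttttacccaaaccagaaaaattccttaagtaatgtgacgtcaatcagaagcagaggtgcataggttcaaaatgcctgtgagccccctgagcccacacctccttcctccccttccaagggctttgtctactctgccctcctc
Gzmd: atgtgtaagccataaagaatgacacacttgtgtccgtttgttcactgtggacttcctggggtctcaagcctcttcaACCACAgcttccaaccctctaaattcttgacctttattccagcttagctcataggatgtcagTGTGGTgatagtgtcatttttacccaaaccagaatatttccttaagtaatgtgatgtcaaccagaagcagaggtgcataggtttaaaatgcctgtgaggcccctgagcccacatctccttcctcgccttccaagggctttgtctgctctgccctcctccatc
Gzmg: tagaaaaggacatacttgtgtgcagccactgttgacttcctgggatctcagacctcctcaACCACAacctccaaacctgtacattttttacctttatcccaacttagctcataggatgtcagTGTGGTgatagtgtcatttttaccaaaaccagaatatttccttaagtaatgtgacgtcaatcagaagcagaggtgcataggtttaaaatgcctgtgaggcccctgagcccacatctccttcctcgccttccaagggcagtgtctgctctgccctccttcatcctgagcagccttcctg
In Gzmc, Gzmd, Gzme, Gzmf and Gzmg, 2 matches to ACCACA were found, on opposite strands and 62 to 66 bases apart, and none to TGANTCA. Gzmb had 2 matches to ACCACA, both on the reverse strand and 59 bases apart, and 1 to TGANTCA. No match overlapped another. At least 1 match stands in 16.8% of 32851 start regions of the same length for ACCACA and in 7.81% for TGANTCA. After alignment, the regions of Gzmc to Gzmg were 74.9% to 93.4% identical to each other, and that of Gzmb was 44.4% to 50.2% identical to them. A match is a run of letters and no evidence that a factor binds.

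Cytokine and chemokine genes of the resting clones moved in both directions. Ccl3, a chemokine that draws monocytes and T cells, read 8.69, 9.18, 9.2 and 10.69 in dormant 8uvmo-2, against 5.98, 6.06, 5.76 and 6.13 in dormant 8uvmo-3 and rose by 3.46 (SE 0.35, adjusted p = 4.85e-05). Ccl4, its neighbour, rose by 1.76 (SE 0.19, adjusted p = 8.17e-05). Ccl5, a chemokine that memory CD8 T cells store, read 8.39, 10.32, 9.11 and 11.17 in dormant 8uvmo-2, against 11.89, 12.33, 12.27 and 12.54 in dormant 8uvmo-3 and fell by 2.51 (SE 0.5, adjusted p = 0.0037). Replicates 2 and 4 of 8uvmo-2 lay nearer to 8uvmo-3 for Ccl5, with -3.51 for replicates 1 and 3 and -1.51 for replicates 2 and 4. Ifng, the signature cytokine of type 1 cells, read 11.43, 10.95, 11.06 and 11.14 in dormant 8uvmo-2 and 11.93, 11.83, 11.79 and 11.74 in dormant 8uvmo-3, a difference of -0.68 (adjusted p = 0.00044), and Tnf differed by 0.71 (adjusted p = 6.92e-05). Both passed the test without reaching a difference of 1. Il2 averaged 4.79 in dormant 8uvmo-2, against 4.75 in dormant 8uvmo-3, and Il5 averaged 4.59 in dormant 8uvmo-2, against 4.57 in dormant 8uvmo-3, near background in both clones and with no difference past the test (adjusted p = 0.822 and adjusted p = 0.908). Il10 differed by 0.82 (adjusted p = 0.00558) with both clones below 7. Of 20 genes of the type 1 program, 2 were held as higher and 1 as lower (median 0.11). Of 21 genes of the type 2 program it was 1 each (median 0.03): Hpgds, the prostaglandin D synthase of blood cells, rose by 2.96 (adjusted p = 2.28e-06) and Ccr4 fell by 2.49 (adjusted p = 1.48e-07).

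Receptors for homing and adhesion separated the clones by large steps. Cxcr6, the receptor for CXCL16 on tissue T cells, read 8.26, 8.98, 7.65 and 8.24 in dormant 8uvmo-2, against 12.67, 12.81, 12.8 and 12.73 in dormant 8uvmo-3, a drop of 4.47 (SE 0.22, adjusted p = 3.63e-07). Ccr7, which guides T cells to lymph nodes, read 6.96, 7.43, 6.86 and 7.17 in dormant 8uvmo-2, against 9.5, 9.99, 10.2 and 10.27 in dormant 8uvmo-3 and fell by 2.89 (SE 0.18, adjusted p = 1.78e-06). Ccr1, a receptor for CCL3 and CCL5, read 10.43, 10.36, 10.27 and 10.05 in dormant 8uvmo-2, against 7.06, 6.86, 7.16 and 6.68 in dormant 8uvmo-3 and rose by 3.34 (SE 0.12, adjusted p = 3.8e-08). Cmklr1, the chemerin receptor, rose by 2.53 (adjusted p = 2.43e-05), and Gpr15, a homing receptor for the large intestine, by 2.32 (adjusted p = 1.03e-07), while Ptger4, a prostaglandin E2 receptor, fell by 1.46 (adjusted p = 4.57e-06). With Ccr4, 3 of 27 homing receptor genes were held as higher and 4 as lower, beside a median of -0.0025. S1pr1, the receptor for exit from lymph nodes, read 10.55, 10.72, 10.27 and 10.6 in dormant 8uvmo-2 and 10.34, 10.31, 10.4 and 10.52 in dormant 8uvmo-3, with no difference past the test (adjusted p = 0.36).

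Integrin genes showed 3 rises and 1 fall among 22 measured (median 0.06). Itga4, the alpha 4 chain that binds VCAM-1, read 6.7, 7.56, 6.48 and 7.62 in dormant 8uvmo-2, against 11.57, 11.74, 11.49 and 11.58 in dormant 8uvmo-3, a drop of 4.51 (SE 0.24, adjusted p = 6.12e-07). Beside Itgax, Itgam (CD11b) read 8.99, 10.65, 9.33 and 11 in dormant 8uvmo-2, against 7.3, 7.37, 7.82 and 7.79 in dormant 8uvmo-3, a rise of 2.42 (SE 0.4, adjusted p = 0.00126) that was larger in replicates 2 and 4, with 1.59 for replicates 1 and 3 and 3.26 for replicates 2 and 4. Itga2, the collagen-binding alpha 2 chain, rose by 1.57 (adjusted p = 3.55e-07). Itga1, the alpha 1 chain of tissue-resident T cells, was below 7 in both clones, at 5.67 in dormant 8uvmo-2, against 5.15 in dormant 8uvmo-3, and above 11 in the 3 other dormant clones. Its difference between the clones was 0.52 (adjusted p = 0.0499).

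Of 27 killer receptor genes measured, 7 were held as lower in 8uvmo-2 and 1 as higher, and the median of the list was -0.36. Beside Klra5 and Klrg1, Crtam, an adhesion receptor of activated CD8 T cells, read 5.55, 5.58, 5.43 and 5.44 in dormant 8uvmo-2, against 8.41, 8.17, 8.44 and 8.18 in dormant 8uvmo-3 and fell by 2.8 (SE 0.084, adjusted p = 1.12e-08). Klri2 fell by 1.54 (adjusted p = 3.51e-06), Klrh1 by 1.36 (adjusted p = 3.44e-05), Klra6 by 1.21 (adjusted p = 0.000191) and Klre1 by 1.2 (adjusted p = 3.53e-05). Klrh1 and Klra6 were below 7 in both clones, and Klra genes are close paralogs whose probes can share signal. Klrb1c, which encodes NK1.1, was the gene that rose: it read 7.26, 8.69, 8.03 and 8.96 in dormant 8uvmo-2, against 5, 4.47, 4.7 and 4.48 in dormant 8uvmo-3, a rise of 3.57 (SE 0.32, adjusted p = 2.09e-05). The natural killer gene Ncr1 averaged 4.96 in dormant 8uvmo-2 and 5.06 in dormant 8uvmo-3.

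Of 28 inhibitory and costimulatory receptors, 2 were held as higher and Pdcd1 as lower (median 0.02). Tnfrsf9, the costimulatory receptor 4-1BB, read 9.08, 11.42, 10.47 and 11.85 in dormant 8uvmo-2, against 7.42, 7.5, 7.87 and 8.05 in dormant 8uvmo-3 and rose by 3 (SE 0.5, adjusted p = 0.00125). Entpd1 (CD39, an ectonucleotidase) rose by 1.27 (adjusted p = 0.000121). For Entpd1 the nearer set stood only 1.03 from 8uvmo-3, and it fell short of 1 without dormant 8uvmo-3 replicate 1 or 2, with whole-clone differences of 1.22 and 1.24. Among 27 genes of cytokine receptors and their inhibitors, a list that also holds Csf2, 2 were held as higher and 1 as lower (median 0.04). Il1r2, the decoy receptor for interleukin 1, rose by 2.56 (SE 0.42, adjusted p = 0.00117), and Csf2, which encodes GM-CSF, by 1.41 (adjusted p = 0.000148). Ifnar2 fell by 1.05 (adjusted p = 0.00166) with both clones below 7. It was no longer held without dormant 8uvmo-2 replicate 3, where the clone difference was -1.01 and the nearer set fell short of 1, or without dormant 8uvmo-3 replicate 1 or 2, where the clone difference was -0.901 and -0.998.

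Of 42 transcription factors of T cells, 3 were held as higher and 1 as lower (9.52%, beside 3.38% of all probe sets; median -0.06). At an adjusted p under 0.05 alone, 8 were higher and 13 lower (50%, beside 27.1% of all). Ahr, the ligand-activated aryl hydrocarbon receptor, read 8.16, 8.16, 8.55 and 8.42 in dormant 8uvmo-2, against 6.44, 6.4, 6.5 and 6.59 in dormant 8uvmo-3 and rose by 1.84 (SE 0.1, adjusted p = 7.35e-07). Irf8 rose by 1.42 (adjusted p = 7.88e-05) and Zbtb7b, the CD4 lineage factor ThPOK, by 1.39 (adjusted p = 1.69e-06). Cd4 itself read 6.77, 7.16, 6.95 and 7.39 in dormant 8uvmo-2 and 7.05, 6.51, 6.47 and 6.04 in dormant 8uvmo-3, with a difference of 0.55 that did not pass (adjusted p = 0.0731). Myb, a factor of early and memory cells, read 7.26, 6.35, 7.74 and 6.19 in dormant 8uvmo-2, against 9.03, 8.71, 8.77 and 8.85 in dormant 8uvmo-3 and fell by 1.96 (SE 0.3, adjusted p = 0.00077), more in replicates 2 and 4 (-1.34 for replicates 1 and 3 and -2.57 for replicates 2 and 4). Tbx21 (T-bet, the type 1 regulator) differed by -0.36 (adjusted p = 0.00125), Gata3 (the type 2 regulator) by 0.75 (adjusted p = 3.02e-05) and Eomes by -0.62 (adjusted p = 0.000809), the last with both clones below 7. The coreceptor genes passed the test with small differences, -0.27 for Cd8a (adjusted p = 0.00175) and 0.35 for Cd8b1 (adjusted p = 0.00141). Of 16 T cell identity genes, 1 was held, the receptor kinase Zap70 with a rise of 1.14 (adjusted p = 5.7e-06). Without dormant 8uvmo-2 replicate 3 the nearer set was under 1, while the clone difference was 1.15.

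Lipid synthesis was the metabolic list with the most members moving 1 way. Of 27 genes of cholesterol and fatty acid synthesis, 7 were held as higher and none as lower. By limma's treat test against a difference of 1, 2 of the 7 remained, Scd1 and Stard4, and the adjusted p became 0.171 for Fads1 and 0.0825 for Elovl6. At an adjusted p under 0.05 without a minimum, 21 were higher and 1 lower, beside 3106 higher and 3232 lower over all probe sets. The list median was 0.65, with 0.70 for replicates 1 and 3 and 0.63 for replicates 2 and 4. Beside Scd1, Fads1, a desaturase of polyunsaturated fatty acids, read 9.99, 9.27, 10.14 and 9.28 in dormant 8uvmo-2, against 8.3, 7.85, 7.96 and 7.6 in dormant 8uvmo-3 and rose by 1.74 (SE 0.22, adjusted p = 0.000221). Elovl6, a fatty acid elongase, rose by 1.59 (adjusted p = 3.49e-05). Stard4, a cholesterol carrier, read 9.91, 9.96, 10.02 and 9.89 in dormant 8uvmo-2, against 8.48, 8.41, 8.31 and 8.29 in dormant 8uvmo-3 and rose by 1.57 (SE 0.069, adjusted p = 1.62e-07). Scd2 rose by 1.27 (adjusted p = 3.13e-05), Fdps by 1.11 (adjusted p = 0.00023) and Sc5d by 1.06 (adjusted p = 2.13e-06). The median level of the list on an array was 9.61, 9.33, 9.86 and 9.37 in dormant 8uvmo-2, against 8.90, 8.78, 8.80 and 8.74 in dormant 8uvmo-3, so the arrays of the clones did not overlap.

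Cell cycle genes differed more between the 2 sets of dormant 8uvmo-2 arrays, by a median of 2.35, than between the clones, where the median was 0.77. None of 50 genes of cell cycle and replication was held, and 2 were called, Cenpa and Ube2c, on the strength of replicates 1 and 3. The median level of the list was 10.59, 8.49, 10.68 and 8.08 in dormant 8uvmo-2, against 9.19, 8.47, 8.36 and 8.35 in dormant 8uvmo-3. Replicates 1 and 3 of dormant 8uvmo-2 were thus above every dormant 8uvmo-3 array, replicate 2 fell among them and replicate 4 below them. On the activated arrays the median level was 8.055, 7.57, 8.49 and 7.955 in 8uvmo-2, and 7.905, 7.98, 8.22 and 7.9 in 8uvmo-3. The dormant arrays were thus not low in cell cycle RNA beside the activated ones. Between the sets, 49 of 50 genes were higher in replicates 1 and 3, 47 of them by at least 1. Mki67, the marker of dividing cells, read 12.19, 10.71, 12.39 and 10.23 in dormant 8uvmo-2 and 10.96, 10.39, 10.07 and 10.3 in dormant 8uvmo-3. Its difference between the clones was 0.95 (adjusted p = 0.169), with 1.86 for replicates 1 and 3 and 0.04 for replicates 2 and 4.

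The genes with the widest distance between the sets are given as a description, since the sets were known from the same values. Rrm2, a subunit of ribonucleotide reductase, read 12.01, 9.27, 12.15 and 8.2 in dormant 8uvmo-2 and 10.68, 10.34, 9.9 and 9.89 in dormant 8uvmo-3. E2f8, an E2F family repressor that rises in S phase, read 10.36, 7.68, 10.48 and 6.79 in dormant 8uvmo-2 and 8.66, 8.13, 7.91 and 7.93 in dormant 8uvmo-3, and the histone chaperone gene Asf1b read 11.07, 8.39, 11.24 and 7.41 in dormant 8uvmo-2 and 9.68, 9.33, 9.03 and 9.02 in dormant 8uvmo-3. In each, replicates 1 and 3 were higher than the 4 dormant 8uvmo-3 arrays and replicates 2 and 4 lower. The same held for Shcbp1 and Pole, which were higher in replicates 1 and 3 than in 2 and 4 by 3.32 and 3.27. Esco2, Jpt2 and Pbk were higher in replicates 1 and 3 by 3.51, 3.37 and 3.14.

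The start regions of Rrm2, E2f8 and Asf1b are shown as examples of genes that moved with the sets. Capitals mark matches on either strand to letters found in promoters of cell cycle genes: TTTGAA (the CHR element), CCAAT and TTCCCGC (E2F). The regions (RefSeq, build GRCm38.p6) lie at chr12:24708004-24708303 on the plus strand for Rrm2, at chr7:48881547-48881846 on the minus strand for E2f8 and at chr8:83955444-83955743 on the plus strand for Asf1b.
Rrm2: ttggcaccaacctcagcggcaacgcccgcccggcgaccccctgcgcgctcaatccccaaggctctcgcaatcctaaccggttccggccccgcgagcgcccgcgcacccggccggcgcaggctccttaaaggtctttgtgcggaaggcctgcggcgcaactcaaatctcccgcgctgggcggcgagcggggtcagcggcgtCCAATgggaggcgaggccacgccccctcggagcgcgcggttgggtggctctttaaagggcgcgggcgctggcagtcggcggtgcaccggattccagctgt
E2f8: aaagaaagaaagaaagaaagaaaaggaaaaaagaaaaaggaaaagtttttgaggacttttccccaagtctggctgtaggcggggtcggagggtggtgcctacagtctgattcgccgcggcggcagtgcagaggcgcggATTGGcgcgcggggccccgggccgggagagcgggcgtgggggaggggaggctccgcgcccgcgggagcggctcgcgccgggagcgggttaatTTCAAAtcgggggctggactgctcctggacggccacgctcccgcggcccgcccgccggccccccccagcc
Asf1b: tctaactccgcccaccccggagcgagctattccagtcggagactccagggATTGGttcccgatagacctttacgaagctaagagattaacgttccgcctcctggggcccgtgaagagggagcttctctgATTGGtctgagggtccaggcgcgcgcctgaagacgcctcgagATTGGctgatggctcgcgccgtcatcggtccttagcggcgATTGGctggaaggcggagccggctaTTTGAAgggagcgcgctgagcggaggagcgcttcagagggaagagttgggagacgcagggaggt
Rrm2 had 1 match to CCAAT and 0 to TTTGAA, E2f8 had 1 match to TTTGAA and 1 to CCAAT, and Asf1b had 1 to TTTGAA and 4 to CCAAT. None of the 3 had these exact letters of the E2F motif in this window, and no matches overlapped. Of all 32851 start regions, 17.9% held TTTGAA, 37.4% held CCAAT and 4.6% held TTCCCGC.

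Genes of low oxygen went the other way between the sets. Of 27 glycolysis and hypoxia genes, none was higher in replicates 1 and 3 than in replicates 2 and 4, and 9 were lower by at least 1, with a median of -0.81. The median level on an array was 10.03, 11.51, 11.18 and 11.58 in dormant 8uvmo-2, against 10.14, 10.65, 11.44 and 11.49 in dormant 8uvmo-3, so the arrays of the clones overlapped and replicate 1 was the lowest of its clone. By this median replicate 3 lay nearer to replicates 2 and 4 than to replicate 1, so the split was less clear than for cell cycle genes. The dormant 8uvmo-3 arrays also spread, from 10.14 to 11.49. Between the clones, 1 gene was held as higher and 1 as lower. Slc16a3, the lactate exporter MCT4, read 9.92, 11.51, 11.2 and 11.58 in dormant 8uvmo-2, against 8.08, 9.01, 9.96 and 9.81 in dormant 8uvmo-3, a rise of 1.84 (SE 0.46, adjusted p = 0.0129) with overlapping arrays. Aldoc, an aldolase, read 8, 9.84, 8.32 and 9.67 in dormant 8uvmo-2, against 10.47, 10.84, 11.66 and 11.49 in dormant 8uvmo-3 and fell by 2.16 (SE 0.43, adjusted p = 0.0037). These counts rest on single arrays. Slc16a3 was no longer held without dormant 8uvmo-2 replicate 3 or dormant 8uvmo-3 replicate 1 (differences of 1.79 and 1.46), and without dormant 8uvmo-2 replicate 1 the list had 4 held members. Within the list, the hypoxia-responsive genes Ndrg1, Hilpda and Ankrd37 were lower in replicates 1 and 3 than in 2 and 4, with differences of -2.12, -2.4 and -2.09. Ctla4, an inhibitory receptor, read 8.53, 11.56, 9.46 and 11.86 in dormant 8uvmo-2 and 9.62, 9.74, 10.11 and 10.24 in dormant 8uvmo-3, and Cd7 read 7.81, 11.11, 8.75 and 11.06 in dormant 8uvmo-2 and 10.18, 10.23, 10.42 and 10.1 in dormant 8uvmo-3. For both, replicates 1 and 3 were below all 4 dormant 8uvmo-3 arrays and replicates 2 and 4 above them. Mmp9, a secreted protease, differed by -2.35 between the sets (replicates 1 and 3 minus 2 and 4) but was above 8uvmo-3 in both (1.66 for replicates 1 and 3 and 4 for replicates 2 and 4), a rise of 2.83 (adjusted p = 0.00379). For Dnm1 and Fam183b the difference between the sets was -2.63 and -2.45.

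**Figure D3:**
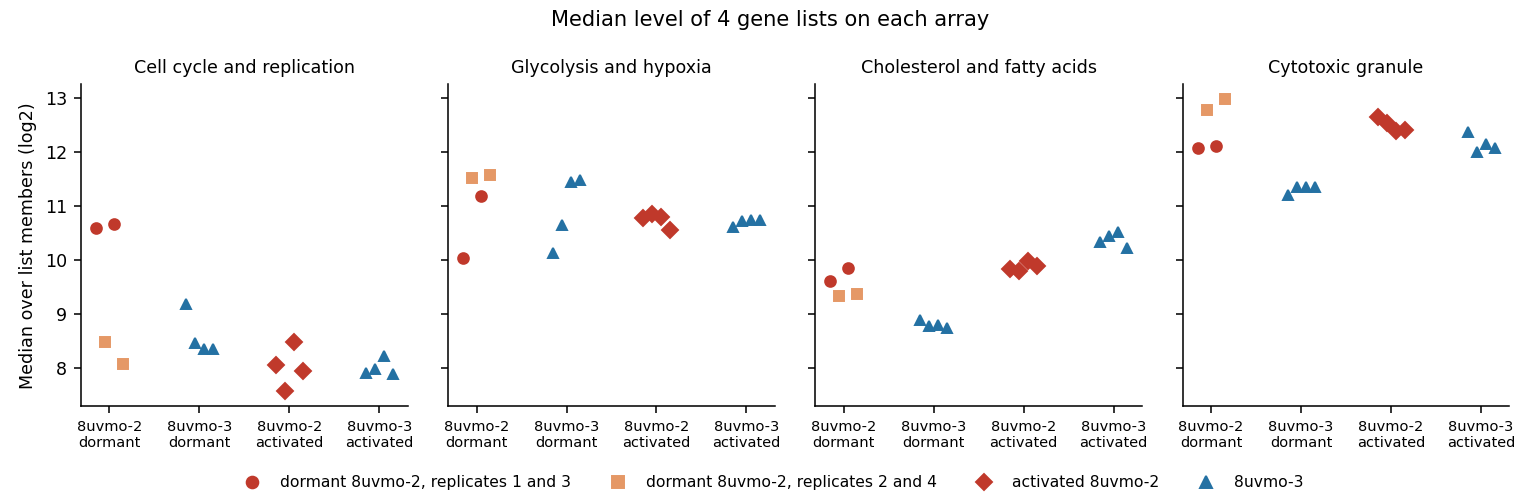
Median array value (log2) over the measured members of 4 gene lists, with 1 point per array. Circles and squares are the 2 sets of dormant 8uvmo-2 arrays, diamonds the activated 8uvmo-2 arrays and triangles the 8uvmo-3 arrays. In the dormant state the cell cycle list splits the 8uvmo-2 arrays, while the cholesterol and fatty acid list and the granule list are above 8uvmo-3 on all 4.

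Of 37 interferon-stimulated and Ifi200 genes, 3 were held as higher and 1 as lower (10.8%, beside 3.38% of all probe sets; median 0.10). At an adjusted p under 0.05 alone, 15 were higher and 8 lower (62.2%, beside 27.1% of all). Isg20, an interferon-induced exonuclease, rose by 1.96 (adjusted p = 4.29e-06), and Ifit1 fell by 1.48 (adjusted p = 6.53e-05) with both clones below 7. Of 21 genes of the unfolded protein response, 1 was held, Sdf2l1, with a rise of 1.59 (adjusted p = 4.86e-06), but 13 were higher and 3 lower at an adjusted p under 0.05 alone (median 0.35). In the Ly6 family 1 of 15 genes was held: the probe set of Ly6a2 read 12.84, 13.07, 12.86 and 13.02 in dormant 8uvmo-2, against 11.21, 11.54, 11.67 and 11.61 in dormant 8uvmo-3, a rise of 1.44 (adjusted p = 3.67e-06). None was held among 22 genes of antigen presentation (median 0.16), 25 of amino acid and one-carbon metabolism (median 0.05) and 23 of survival and death (median 0.08). At an adjusted p under 0.05 alone, 9 antigen presentation genes were higher and 2 lower, 3 amino acid genes were higher and 4 lower, and 8 survival genes were higher and 2 lower. By the same limma test with leave-one-out, 1 amino acid gene was held without dormant 8uvmo-2 replicate 1 or dormant 8uvmo-3 replicate 4, and 1 survival gene without dormant 8uvmo-2 replicate 2.

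Among the markers of other cells, Itgax was the macrophage and dendritic gene held, and a second gene joined it without dormant 8uvmo-2 replicate 2 or without dormant 8uvmo-3 replicate 1. The B cell genes Ebf1, with a rise of 1.4 (adjusted p = 0.000121), and Cr2, with a fall of 1.24, were held with both clones below 7. Cr2 was lost without dormant 8uvmo-2 replicate 4. The stromal genes Lum and Cdh1 fell by 1.65 (adjusted p = 1.58e-05) and 1.61 (adjusted p = 7.19e-06). No erythroid or granulocyte gene was held, and none of the 11 passed limma's adjusted p under 0.05. Of 21 genes of circadian rhythm and adhesion that were picked from earlier results of the series, 1 was held as higher and 2 as lower, which is no independent evidence. Lgi1, a secreted neuronal protein, read 5.43, 6.15, 5.54 and 6.35 in dormant 8uvmo-2, against 10.25, 10.11, 10.44 and 10.11 in dormant 8uvmo-3 and fell by 4.36 (SE 0.2, adjusted p = 1.95e-07). Lxn, a carboxypeptidase inhibitor, rose by 2.49 (adjusted p = 3.8e-08), and Anxa8 fell by 1.55 (adjusted p = 0.000139).

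Antigen receptor gene segments were measured by 83 probe sets, of which 5 were held (6.02%, beside 3.38% of all probe sets). Trgv1, a variable segment of the gamma chain, read 7.07, 6.74, 7.17 and 6.79 in dormant 8uvmo-2, against 11.37, 11.46, 11.59 and 11.5 in dormant 8uvmo-3 and fell by 4.54 (SE 0.11, adjusted p = 1.85e-09), and it was above 10 in the 3 other dormant clones. A probe set that names 2 Trgv segments fell by 1.57 below 7 in both clones. Of 2 probe sets that name the same pair of Trav3 segments and carry identical values, each fell by 1.73, and they count as 1 measurement. They averaged below 7 in both clones, at 5.07 in dormant 8uvmo-2 and 6.8 in dormant 8uvmo-3. One of 3 probe sets of Ighm, the mu heavy chain, rose by 2.71 (adjusted p = 4.35e-05), with means below 7 in both clones (6.87 in dormant 8uvmo-2 and 4.16 in dormant 8uvmo-3). The other 2 Ighm probe sets differed by -0.04 and 0.03 (adjusted p = 0.723 and 0.901).

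Small differences were also shared by whole chromosomes. Over probe sets at 7 or above in both clones, the median difference was 0.28 on chromosome 1, where 78.9% of 559 were above 0, and 0.22 on chromosome 17. It was -0.27 on chromosome 15, where 21.7% of 382 were above 0, and -0.26 on chromosome 10, where 19.8% of 489 were. The median over all chromosomes was -0.01. The sets gave 0.27 and 0.28 on chromosome 1, -0.25 and -0.28 on chromosome 10 and -0.29 and -0.32 on chromosome 15. In the activated arrays, which share no sample with the dormant ones, the medians were 0.32, -0.27 and -0.28 on the same 3 chromosomes. Chromosomes 3, 5, 9, 14 and 18 had medians of 0.14 to 0.20, chromosomes 2, 7 and 13 of -0.01 to 0.04, and the other autosomes of -0.15 to -0.07. The granzyme cluster, Pdcd1 and Klra5 lie on chromosomes 14, 1 and 6. These are descriptions without a test, and DNA copy number was not measured.

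**Figure D4:**
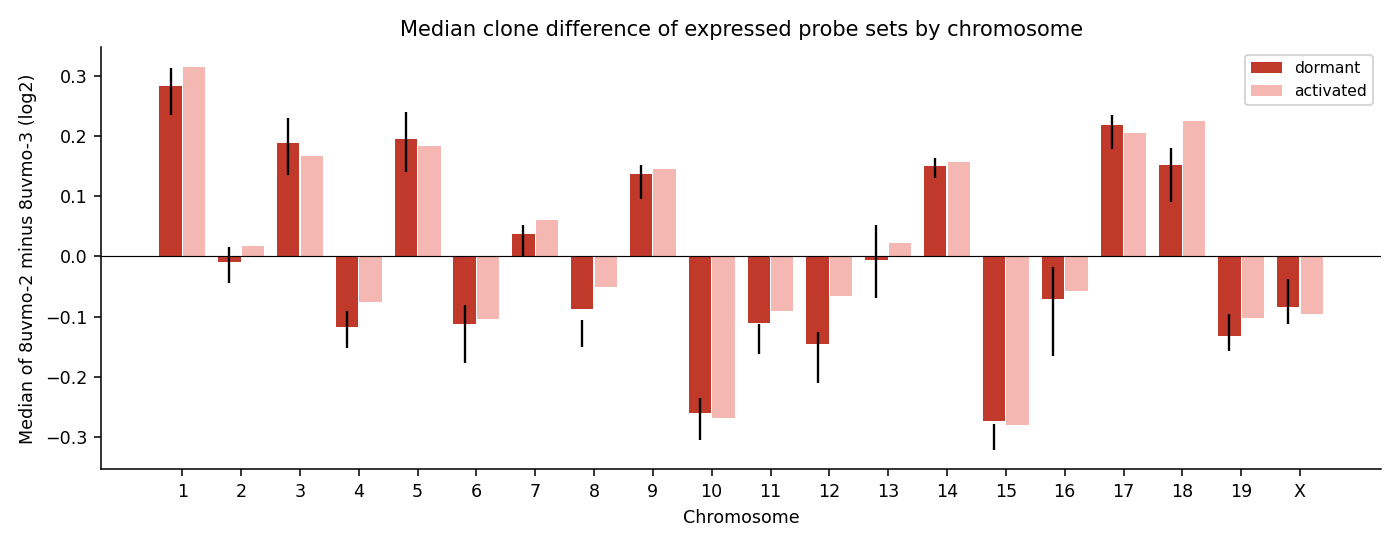
Median difference of 8uvmo-2 minus 8uvmo-3 (log2) over probe sets at 7 or above in both clones, by chromosome, for dormant (dark bars) and activated arrays (light bars). Black lines span the medians of the 4 single dormant 8uvmo-2 arrays against the 8uvmo-3 mean, and since a median of means differs from the medians of single arrays a line need not cross its bar's end. Chromosome 1 reads 0.28 and 0.32, chromosome 10 -0.26 and -0.27 and chromosome 15 -0.27 and -0.28.

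Xist, the RNA of the inactive X chromosome in female cells, read 8.57, 8.76, 7.44 and 8.12 in dormant 8uvmo-2, against 10.48, 10.55, 10.54 and 10.65 in dormant 8uvmo-3, a fall of 2.33 (SE 0.24, adjusted p = 5.09e-05). It was the 1 held gene among 8 sex-linked genes. The Xist level in 8uvmo-2 was not the same in both states. On the activated arrays Xist averaged 5.58 in 8uvmo-2, near background, against 9.735 in 8uvmo-3, a difference of -4.15 (limma, adjusted p = 1.62e-08). The state term was 1.82 (limma interaction term, adjusted p = 0.000815). The Y-linked Uty averaged 4.02 in dormant 8uvmo-2 and 3.97 in dormant 8uvmo-3, and Kdm5d averaged 4.28 in dormant 8uvmo-2 and 4.30 in dormant 8uvmo-3. In the other dormant clones Xist averaged 6.11 in sAg1, 5.07 in sAg3 and 4.82 in CD8bm1. The median on chromosome X was -0.08.

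The activated arrays showed which clone differences were present in other samples of the same clones. Between activated 8uvmo-2 and activated 8uvmo-3, 723 probe sets were called (3.09%), 390 higher and 333 lower. Of the 792 probe sets held in the dormant clones, 395 were called in the same direction after activation (49.9% of the held and 54.6% of the activated calls) and 1 in the opposite direction. Of the 241 dormant calls that 1 set did not hold, 49 were (20.3%). Klra5 averaged 5.99 in activated 8uvmo-2, against 12.13 in activated 8uvmo-3, a difference of -6.15 (adjusted p = 4.21e-08). Cxcr6 averaged 6.65 in activated 8uvmo-2, against 11.78 in activated 8uvmo-3, a difference of -5.13 (adjusted p = 1.36e-09). Itgax averaged 10.1 in activated 8uvmo-2, against 5.97 in activated 8uvmo-3, a difference of 4.14 (adjusted p = 1.12e-09). Adgre5, Pdcd1, Krt20, Trgv1 and Asb2 likewise differed by -5.68, -4.6, -4.78, -4.06 and 3.94 after activation. Klra5, Cxcr6, Itgax, Adgre5 and Pdcd1 thus separated the clones in both states. Other held receptor genes did so less or not at all. Klrb1c differed by 3.57 in dormant cells and by 0.73 after activation, where it averaged 4.51 in 8uvmo-2 and 3.78 in 8uvmo-3. After activation Crtam differed by 0.03, Itgam by -0.21 and Tnfrsf9 by 0.475. The size was not the same in both states: for Klra5, Pdcd1, Klrg1 and Itgax it was smaller after activation, with dormant minus activated clone differences of -2.34, -1.36, -2.84 and 1.23 (limma interaction term, adjusted p = 9.64e-05, 2.56e-05, 1.45e-05 and 0.00679). For Klra5, 8uvmo-3 averaged 12.06 dormant and 12.13 activated, and 8uvmo-2 moved from 3.58 to 5.99, within values near background. Itgax in 8uvmo-3 was near background in both states, at 5.35 and 5.97. The median over all gene-named probe sets was 7.03 to 7.09 on activated 8uvmo-2 arrays, against 6.63 to 6.69 on dormant ones. Whether a higher background on activated arrays contributed was not tested.

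The size of many held differences depended on the state. In a test of the difference itself (the same limma interaction term, adjusted p under 0.05 and at least 1 log2 unit), 304 of the 792 depended on the state (38.4%), against 534 of all 23410 (2.28%). For 292 the difference was smaller after activation and for 12 larger. Because the 792 were chosen for their size in dormant cells, this direction is no independent result. Ccl3 averaged 14.25 in activated 8uvmo-2, against 14.25 in activated 8uvmo-3, a difference of 0.00, and Ccl4 averaged 13.28 in activated 8uvmo-2, against 13.35 in activated 8uvmo-3. The highest value on the 8 dormant arrays was 14.75, so Ccl3 stood near the top of the scale. Whether differences are compressed at such levels was not tested. Crtam averaged 11.39 in activated 8uvmo-2, against 11.36 in activated 8uvmo-3, also without a difference (adjusted p = 0.913). The granzymes Gzmd and Gzme differed by 0.09 and 0.19 after activation and Gzmc by 1.95, with a state term of 2.71 for Gzmc (adjusted p = 0.000154). Cpa3 averaged 5.66 in activated 8uvmo-2, against 4.58 in activated 8uvmo-3. The cholesterol and fatty acid list had a median of -0.38 after activation, against 0.65 in dormant cells, with 1 member called higher and 2 lower.

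Of the 534 state-dependent probe sets, 153 had a larger clone difference after activation than at rest, 140 of them outside the 792. Cytokine genes are given as examples. Il10, an inhibitory cytokine, averaged 11.26 in activated 8uvmo-2, against 5.5 in activated 8uvmo-3, a difference of 5.76 (adjusted p = 2.18e-09), against 0.82 in dormant cells. Csf2 averaged 11.44 in activated 8uvmo-2, against 7.98 in activated 8uvmo-3, a difference of 3.46 (adjusted p = 0.000113). Il13 averaged 7.81 in activated 8uvmo-2, against 6.52 in activated 8uvmo-3 (difference 1.29, adjusted p = 1.17e-06) and Il2 averaged 8.44 in activated 8uvmo-2, against 7.07 in activated 8uvmo-3 (difference 1.38, adjusted p = 0.00588). The state term was past adjusted p under 0.05 for Il10, Il13, Il2 and Csf2, at 4.73e-09, 1.05e-05, 0.0175 and 0.0129. Ifng averaged 14.17 in activated 8uvmo-2, against 14.17 in activated 8uvmo-3, also near the top of the scale, and Tnf differed by -0.3.

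**Figure D5:**
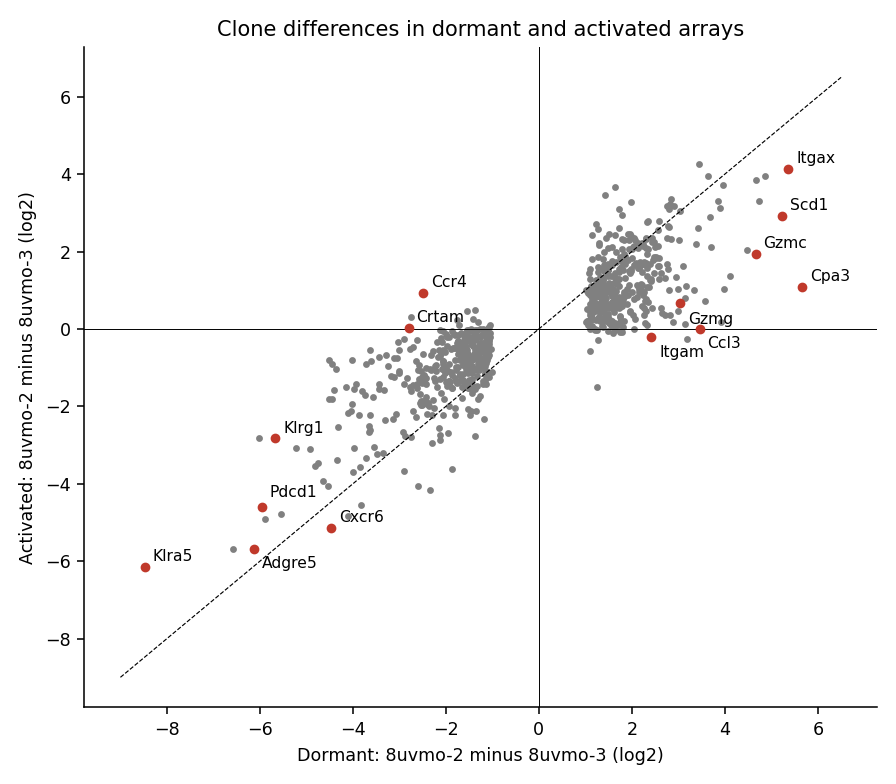
Each point is 1 of the 792 probe sets held in the dormant clones, placed by the 8uvmo-2 minus 8uvmo-3 difference in dormant arrays (horizontal axis, log2) and in activated arrays (vertical axis, log2), with equal values on the dashed line. Klra5, Adgre5, Pdcd1, Cxcr6 and Itgax keep differences of more than 4 in size in both states, while Ccl3, Crtam and Itgam lie near 0 after activation.

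Among the held probe sets, the clone outlying from the 10 dormant arrays of the other clones was more often 8uvmo-3. The excess came from those lower in 8uvmo-2, and the share over all probe sets was not counted. Of the 792 held probe sets, 8uvmo-3 alone lay at least 1 outside the range of the 3 other clone means on 231 and 8uvmo-2 alone on 113, with both outside on 20 and neither on 428. Among the 395 that were lower in 8uvmo-2, 8uvmo-3 alone stood outside on 173 and 8uvmo-2 alone on 24. Among the 397 that were higher, 8uvmo-2 alone stood outside on 89 and 8uvmo-3 alone on 58. Adgre5, C1ql3 and Krt20 are examples of high levels in 8uvmo-3 alone, and Scd1, Asb2 and Slc34a2 of high levels in 8uvmo-2 alone. On 473 of the 792 the lower clone averaged below 7, where a value can hardly lie 1 below other clones that are also near background. The rule thus favours the higher clone as the outlying one. These counts describe 5 clones and were not tested.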

How the data were processed

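The authors deposited 1 log2 value per probe set and Affymetrix array, with 1 array per sample. RNA was extracted with QIAGEN RNeasy and 100 ng was taken into the WT Plus labelling, per the labels. The submitters' processing notes name Partek and RMA without versions. Whether all arrays were normalized together is not given in the sources used here. A gene name in the platform annotation was found for 23410 of 35556 rows, and these were tested: 21789 carry 1 symbol and 1621 several. The other 12146 entered only an alternative. Through gene numbers, 21698 matched the GRCm38.p6 gene table, used for names and chromosomes.

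Each probe set was fitted with limma 3.58.1 (R 4.3.3; lmFit and eBayes with a mean trend) on the 8 dormant arrays alone, since the spread of dormant 8uvmo-2 was wider than that of other groups. All tests were two-sided, with Benjamini-Hochberg adjustment over 23410 probe sets. The activated clones were fitted alike, and the state term on 16 arrays. SE is the standard error of a difference. Arrays have no read depth, so 4 arrays per group limit the precision.

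The members, the sets, the 25 gene lists and the tests were chosen with earlier results of these data known. A list gene with several probe sets is represented by its brightest probe set. Named were 20 key genes, the 12 largest held differences per direction (1 symbol, no predicted loci or receptor segments), up to 4 held members per list, held receptor segments, and the 8 genes per direction with the widest distance between the sets. The other list members, Mcpt8, Kit and marker genes named beside them were chosen after their values were seen. Start regions are RefSeq sequences. The procedure was tested on simulated data for the dormant comparison with 23410 probe sets. Of 50 probe sets changed by each of 1.5, 2, 3 and 4 log2 units, 50, 48, 50 and 49 were held in the right direction. Of the unchanged ones, 0 were held. The simulated arrays were drawn independently, without the 2 sets of dormant 8uvmo-2, so the simulation cannot show how the rule handles such sets. Alternatives covered the variance model, array weights, centring, quantile normalization, filters, the minimum difference, the sets and each array left out.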

Additional observations from a re-analysis of the deposited data

Results flagged for a closer look

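Of the 214 groups of 4 arrays formed by the 107 named probe sets in the 2 dormant clones, 4 held an array far from the other 3 by Dixon's ratio test, where chance gives about 1 in 20. Dormant 8uvmo-2 replicate 2 read 9.66 for Ifi208, against 9.21 to 9.27 on the other 3 arrays of the clone. Dormant 8uvmo-2 replicate 4 read 5.51 for Frzb, against 4.83 to 4.93, and 5.23 for Bex3, against 5.79 to 5.88. Dormant 8uvmo-3 replicate 4 read 6.31 for Fam183b, against 5.79 to 5.85. Each gap is small beside the clone difference of Ifi208, Frzb and Bex3.

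For 304 of the 792 probe sets held by both sets, the clone difference depended on the state by the interaction term. In 5 named genes the dormant and activated differences had opposite signs and lay more than 2 log2 units apart. Ccl3 differed by 3.46 in dormant cells and -0.0025 in activated cells, a state term of 3.46 (limma adjusted p = 1.24e-05). Itgam differed by 2.42 and -0.21, a term of 2.63 (adjusted p = 0.00151). Crtam differed by -2.8 and 0.03, a term of -2.83 (adjusted p = 1.45e-08), Ccr4 by -2.49 and 0.92, a term of -3.42 (adjusted p = 6.32e-05), and Anxa8 by -1.55 and 0.46, a term of -2.01 (adjusted p = 0.000356). None of the 5 activated differences passed the test, with adjusted p of 0.965, 0.5, 0.913, 0.109 and 0.162 in the same order. Both activated clones averaged 14.25 for Ccl3, near the top of the scale.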

How the results depend on the processing

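The 1033 calls between the dormant clones became 6338 without a minimum difference and 459 by limma's treat test against a difference of 1, and the other 12 alternatives that kept all arrays or 1 set gave 881 to 1372. The 792 held probe sets became 6338 without a minimum, 459 by treat, 1372 with replicates 1 and 3 of 8uvmo-2 alone and 1211 with replicates 2 and 4 alone, which by construction drop the condition on the second set or on size. All 792 were also held under a spread shared by all 10 groups, no variance trend, array weights and the set means as replicates, 779 after centring and 771 after quantile normalization. Without any test, 792 probe sets already met the condition on size and direction in both sets, so the p-value removed none of them. Settings that change only the variance or the replicates could thus lower this count but not raise it. Leaving out 1 array at a time gave 1016 to 1117 calls and 758 to 822 held. The activated count of 723 became 5596 without a minimum and 303 by treat, and 699 to 758 with 1 array left out. The count of 534 for the state became 2885 without a minimum. With the replicate number as a replicate block the counts were 1051, 792 and 727 for called, held and activated. The titles share numbers between the clones. Deviations of same-numbered arrays correlated at 0.44, -0.02, -0.14 and 0.30, beside -0.43 to 0.34 for arrays of different numbers. These few values cannot settle whether the numbers pair the arrays or mark a shared batch. Genes named for the distance between the sets can change sign with 1 set alone by construction, as Rrm2 (0.21 in the full comparison) does with 1.88 for replicates 1 and 3 and -1.47 for replicates 2 and 4. Among the other named genes signs turned for Il2 and Il5, both near background: Il2 (0.035 in the full comparison) read -0.0075 with replicates 1 and 3 alone and ranged from -0.0092 (without dormant 8uvmo-3 replicate 2) to 0.0775 with 1 array left out, and Il5 (0.0275) from -0.0583 (without dormant 8uvmo-2 replicate 4) to 0.0983, also negative at -0.0308 without dormant 8uvmo-3 replicate 3. Counts of list members held moved by over 1.5 times in 63 cases, mostly without a minimum, by treat or with 1 set alone, and did not in 509. Chromosome medians moved beyond the spread of the 8uvmo-2 arrays in 18 cases and stayed within it in 222. By treat, 19 named genes were no longer held: Aldoc, Anxa8, Ccl4, Ccl5, Cr2, Csf2, Ebf1, Elovl6, Entpd1, Fads1, Ifit1, Ifnar2, Il1r2, Irf8, Itgam, Myb, Slc16a3, Tnfrsf9 and Zap70. After quantile normalization Entpd1, Ifnar2 and Zap70 fell short in 1 set, with differences of 1.23, -1.04 and 1.10, and Ifnar2 after centring too. No background or detection call limits the dim probe sets.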

Other observations

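Small nucleolar RNAs, which guide the modification of ribosomal RNA, formed a group that was lower in dormant 8uvmo-2 as a whole. This list, every probe set with a single Snora or Snord symbol, was chosen after the values were seen and has no test of its own. Of 56 probe sets, 9 were held as lower and none as higher (16.1%, beside 3.38% of all probe sets). At an adjusted p under 0.05 alone (limma), 40 were lower and none higher (71.4%, beside 27.1% of all). By limma's treat test against a difference of 1, 2 were held. Some symbols have more than 1 probe set, and those of Snora30 and of Snord118 carry identical values, so the 56 are not separate measurements. The median difference was -0.64, with -0.61 for replicates 1 and 3 and -0.67 for replicates 2 and 4, beside -0.005 over all probe sets. Snora44 averaged 8.79 in dormant 8uvmo-2 and 10.71 in dormant 8uvmo-3 (adjusted p = 4.96e-07), and Snora16a averaged 9.61 in dormant 8uvmo-2 and 11.34 in dormant 8uvmo-3 (adjusted p = 1.06e-06). For Snora44, the other dormant clones averaged 9.35 in sAg1, 9.68 in sAg3 and 9.19 in CD8bm1, between the 2 clones. In activated cells the median of the list was -0.09 and none was called. Without dormant 8uvmo-2 replicate 4, 5 of the 56 were held. Many of these RNAs lie in introns of host genes and several on 1 host, and how the RNA preparation retains such short transcripts was not tested.

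Replicate numbers also went with the array medians of both dormant clones: 6.64, 6.68, 6.63 and 6.69 in dormant 8uvmo-2, and 6.65, 6.70, 6.65 and 6.70 in dormant 8uvmo-3. Replicates 1 and 3 were lower than replicates 2 and 4 in each clone, but the 8uvmo-3 arrays did not fall into sets by gene expression.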
